A study of Homo sapiens with 18 samples.

Results

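MYC and a group of genes for ribosome biogenesis were described across 6 groups of lymphoma cell line samples measured on 18 expression arrays. The group was given as 37 gene symbols, and each gene was read from the probe set (the array's unit of measurement) that is annotated to that symbol alone, taking the brightest on average where a gene had several. In this way 34 of the 37 genes had a value, out of 18417 genes on the array with such a probe set. NOP56, GNL3 and DDX18 had no probe set of their own and were not analysed here. All values are log2 signals, so a difference of 1 is a doubling, and a level of one gene is not comparable with that of another.

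The study asks how far PAX5, the transcription factor of B-cell commitment, restores the B-cell program in a Hodgkin lymphoma line. L428 is that line, and L428-PAX5 is its derivative in which PAX5 is induced with mifepristone. Both lines received 0.25 nM mifepristone and were harvested after 5 days (L428+M and L428-PAX5+M), or had 2 days of mifepristone followed by 3 µM 5-aza-2'-deoxycytidine (5-aza-dC, an agent that removes DNA methylation) for 3 days, to which 640 nM trichostatin A (TSA, which blocks histone deacetylases) was added 24 hours before harvest (L428+MAT and L428-PAX5+MAT). Raji and Namalwa are Burkitt lymphoma lines, a B-cell tumour defined by translocation of MYC, and were not treated. Each group held 3 arrays. L428-PAX5 alone grew in medium with 25 mM HEPES, so line, PAX5 and medium cannot be told apart, and Raji and Namalwa differ from the L428 groups in both line and mifepristone. The labels do not say whether L428-PAX5 is 1 clone or whether the replicates came from separate cultures. The p-values therefore reflect only how far these samples spread, and that spread may be technical. In bulk RNA, fewer cells of a type and less RNA per cell cannot be told apart.

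MYC is a transcription factor that pairs with MAX and binds E-box sequences at the promoters of many growth genes. Ribosomes are built in the nucleolus, where RNA polymerase I makes a long precursor of ribosomal RNA that is modified by small nucleolar ribonucleoproteins (snoRNPs), cut, folded and assembled with ribosomal proteins into the small (40S) and large (60S) subunits. Genes for these steps are among the best known MYC targets, and Burkitt lymphoma cells are known for a prominent nucleolus and a high rate of ribosome production.

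PAX5 signal followed the labels, with 12.68 to 12.81 in L428-PAX5+M and 6.7 to 8.64 in L428+M, where replicate 1 was the highest. The defining B-cell markers CD79A, CD79B, MS4A1, CD22 and BLNK (5 of 6 listed had a probe set of their own) had group means below the median of all values (7.18) in each of the 4 groups made from L428. All 5 lay above it in Raji and 4 in Namalwa. The 5 Hodgkin markers, TNFRSF8, CCL17, IL13RA1, MSC and FSCN1, lay above it in all 4 groups made from L428. TNFRSF8, CCL17 and FSCN1 also lay just above it in Raji and Namalwa (7.53 to 7.69), while IL13RA1 and MSC did not. The mean of the 5 per array was 10.91 to 11.4 in L428+M, 10.87 to 10.97 in L428-PAX5+M and 11.01 to 11.37 in L428+MAT. It was 9.57 to 9.82 in L428-PAX5+MAT, 6.62 to 6.72 in Raji and 6.48 to 6.57 in Namalwa. No T and NK cell marker but NKG7, no myeloid marker and no fibroblast or epithelial marker but COL1A1 had a group mean above 7.18. Replicate arrays correlated over all genes with r from 0.9628 to 0.9961, the lowest being L428-PAX5+MAT replicates 2 and 3. All 34 genes had group means above 7.18, except DDX10 in L428+M and L428+MAT.

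Promoter windows for 27 of the 34 genes were found in RefSeq (GRCh38.p14), each from 250 bases before an annotated transcription start to 50 after it, 33 windows in all. MYC, RRS1, BOP1, URB2, NOLC1, RRP12 and NOP58 had none in the table used here. The canonical E-box CACGTG, which reads the same on both strands, occurred in a window of 15 of the 27 genes (55.6%), against 1557 of 14239 genes of the array with a window (10.9%). The related CACGCG, searched also as CGCGTG, occurred in 10 of 27 (37.0%) against 18.6%, and the ETS core CCGGAAG, searched also as CTTCCGG, in 9 of 27 (33.3%) against 16.8%. Counted by window, the E-box was in 15 of 33 (45.5%) against 7.26% of the 35116 windows in the table. The first 2 motifs share their first 4 letters. A match is a description of the letters and not a measured binding site. Windows of FBL, GAR1, NAT10 and PES1, which also hold an E-box and fell with the drugs in L428-PAX5, are not printed. Those of LTV1 and RRP9 are not printed either. The following windows, in lower case with the E-box in capitals, are read 5′ to 3′ on the gene's strand. They come from the 7 genes with an E-box whose signal rose with PAX5 (ODC1 has 2 copies) and from WDR43 and NOP14, whose signal fell with the drugs.
ODC1 (chr2:10448024-10448053, minus strand): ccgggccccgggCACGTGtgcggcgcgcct
ODC1 (chr2:10447990-10448019, minus strand): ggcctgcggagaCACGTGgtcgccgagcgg
NOP2 (chr12:6568242-6568268, minus strand): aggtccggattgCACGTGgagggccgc
MRTO4 (chr1:19251807-19251836, plus strand): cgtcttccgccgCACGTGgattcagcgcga
LYAR (chr4:4290068-4290097, minus strand): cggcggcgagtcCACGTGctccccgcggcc
DDX21 (chr10:68956604-68956633, plus strand): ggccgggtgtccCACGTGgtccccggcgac
BYSL (chr6:41921515-41921544, plus strand): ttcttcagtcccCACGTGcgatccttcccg
RCL1 (chr9:4792936-4792965, plus strand): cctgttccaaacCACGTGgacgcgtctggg
WDR43 (chr2:28894658-28894687, plus strand): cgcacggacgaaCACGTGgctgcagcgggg
NOP14 (chr4:2963374-2963403, minus strand): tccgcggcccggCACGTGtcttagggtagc
In all, the 15 genes held 16 copies, 11 of which began 3 to 35 bases after the annotated start and 5 of which began before it, at -64 to -5. In L428-PAX5+M against L428+M, 7 of the 15 genes with an E-box passed the test as higher (median log2 change 0.45), as did 7 of the 12 with a window and no E-box (median 0.65) and 5 of the 7 with no window (median 0.64).

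The first comparison asks what induced PAX5 does to these genes without the drugs. Of the 34 genes, 19 were higher with PAX5 (L428-PAX5+M against L428+M) and none was lower (limma, Benjamini-Hochberg adjusted p below 0.05 over 18417 genes). That is 55.9% of the group, against 9.72% of all genes tested that were higher and 6.55% that were lower. These all-gene shares include dim genes, whereas nearly all of the 34 genes lie above the median of all values (7.18). Left out as dim in a further fit were genes with no group mean above that median. Of the remaining 11038 genes, 1770 were higher and 1175 lower, and of the 34 again 19 and none. At an unadjusted p below 0.05, 24 were higher and none lower. The median log2 change was 0.64, or 1.56-fold, against -0.03 over all genes, and 5 of the 19 rose at least 2-fold. Leaving out L428+M replicate 1, which had the highest PAX5 signal of that group, gave 19 higher and none lower. When replicate number entered as a block, 22 were higher, the added genes being BOP1 (adjusted p = 0.0202), GAR1 (0.0261) and WDR43 (0.03). The block raised the number of higher genes among all 18417 as well, from 1790 to 2559.

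**Figure D1:**
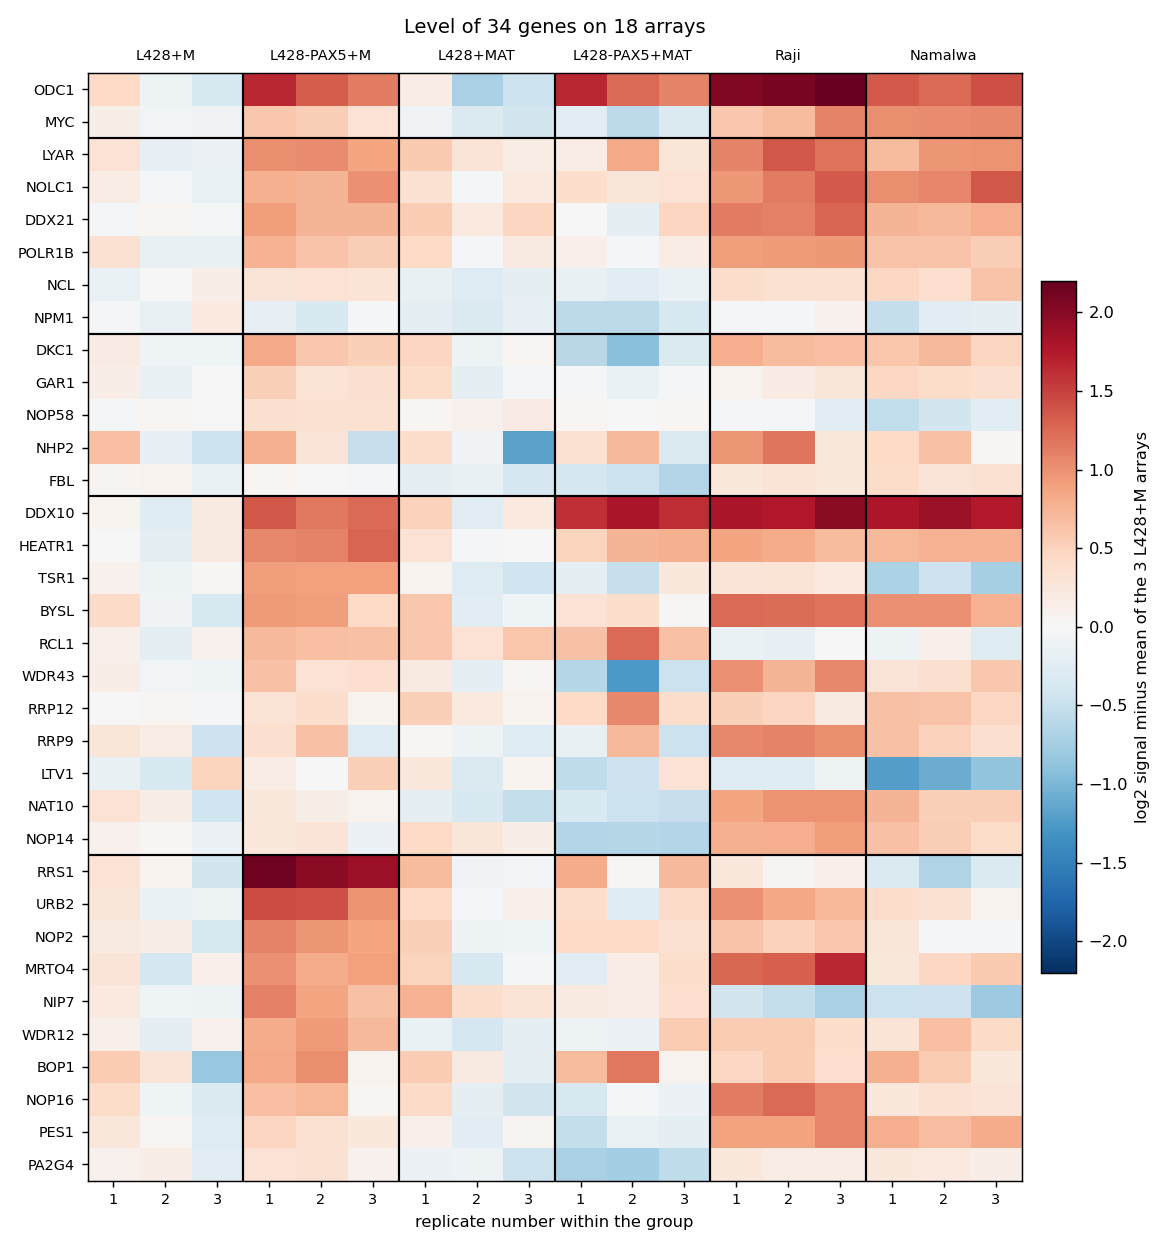
Each row is 1 of the 34 genes and each column 1 of the 18 arrays; colour is the log2 signal minus the mean of the 3 L428+M arrays (red higher, blue lower), with horizontal lines between role groups. Between 29 and 33 of the 34 genes lie above that mean on each L428-PAX5+M array, 15 to 20 on each L428-PAX5+MAT array, where ODC1 and DDX10 stay deep red, 29 to 30 on each Raji array and 26 to 27 on each Namalwa array, with LTV1 and NIP7 blue in both Burkitt lines.

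MYC and ODC1, its long-known target that encodes ornithine decarboxylase, the rate-limiting enzyme of polyamine synthesis, both rose. MYC signal was 10.94, 10.75 and 10.74 in L428+M, against 11.4, 11.36 and 11.13 in L428-PAX5+M. The groups did not overlap, and the rise of 0.48 ± 0.15 (a log2 change with its SE, 3 arrays per group, adjusted p = 0.0297 by limma) was 1.4-fold. The call was narrow: adjusted p was 0.0984 without L428+M replicate 2, 0.0855 without L428+M replicate 3, 0.113 without L428-PAX5+M replicate 1, 0.101 without L428-PAX5+M replicate 2, and 0.0508 with only the compared groups in the fit, with changes of 0.43 to 0.48. ODC1 signal was 11.02, 10.48 and 10.26 in L428+M, against 12.24, 11.93 and 11.71 in L428-PAX5+M. Every array with PAX5 lay above every array without it, and the rise was 2.59-fold (1.37 ± 0.22, adjusted p = 2.04e-04).

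Factors of ribosome assembly were next. RRS1, which brings the 5S ribonucleoprotein into the large subunit, had 9.75, 9.5 and 9.03 in L428+M, against 11.57, 11.41 and 11.32 in L428-PAX5+M. It rose 4.01-fold (2.00 ± 0.23, adjusted p = 5.13e-06), the largest change of the 34 genes in this comparison. URB2, a nucleolar factor of early large subunit assembly, had 8.34, 7.92 and 7.96 against 9.5, 9.48 and 9.05, a 2.41-fold rise (1.27 ± 0.19, adjusted p = 9.95e-05). DDX10, an RNA helicase of small subunit processing, had 6.77, 6.44 and 6.9 in L428+M, below the median of all values, where array signal compresses differences, and 8.06, 7.86 and 7.95 in L428-PAX5+M. Its rise was 2.39-fold (1.25 ± 0.16, adjusted p = 2.41e-05). For none of these 3 genes did the 2 groups overlap.

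By role, calls were found in every group. Among 10 measured factors of 60S assembly, 6 rose and none fell, with a median log2 change of 0.85 and a range from 0.25 to 2.00. Of the 6 genes for RNA polymerase I transcription and nucleolar chromatin, 4 rose (median 0.72): LYAR, NOLC1, the helicase DDX21 and POLR1B, a core subunit of the polymerase. The abundant nucleolar proteins NCL (nucleolin, 0.29 ± 0.11) and NPM1 (nucleophosmin, -0.18 ± 0.14) did not pass. Of 11 genes of the small subunit processome and 40S maturation, 5 rose (median 0.45, range 0.13 to 1.25), among them HEATR1, a subunit of the complex that first binds the nascent precursor. Of the 5 measured snoRNP proteins, 2 rose (median 0.34): DKC1, the pseudouridine synthase of H/ACA snoRNPs (0.66 ± 0.17), and NOP58, a core protein of box C/D snoRNPs (0.34 ± 0.11). FBL, fibrillarin, the methyltransferase of box C/D snoRNPs, had a change of 0.00, with a 95% interval from -0.24 to 0.24. In 15 of the 19 genes the call held in every one of 18 fits that left out 1 array. Besides MYC, it was lost for DKC1 without L428-PAX5+M replicate 1 (0.57, adjusted p = 0.0584), for BYSL without L428+M replicate 2 (0.73) or 3 (0.59) or L428-PAX5+M replicate 1 or 2 (0.69 in both), and for NOP58 without any single one of the compared arrays (0.32 to 0.37) and several others.

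**Figure D2:**
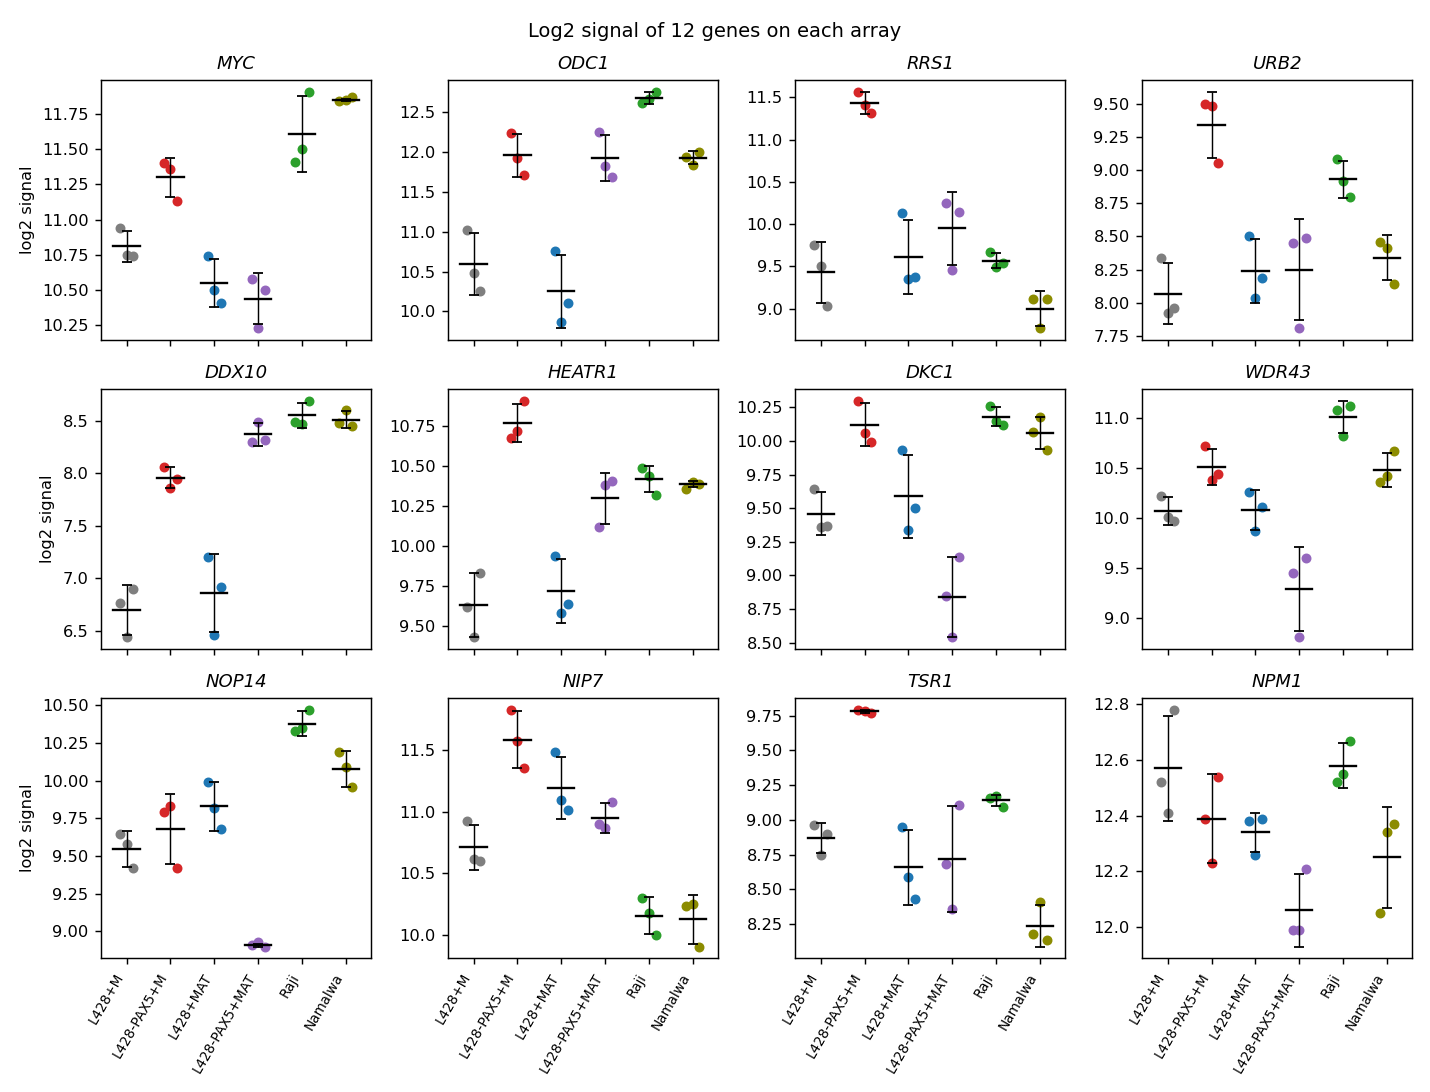
Points are single arrays, the horizontal bar is the group mean and the error bar its SD (n = 3), on a log2 scale that differs between the 12 genes. By group mean, RRS1, URB2, NIP7, TSR1 and HEATR1 are highest in L428-PAX5+M. ODC1 and DDX10 stay high in L428-PAX5+MAT, and MYC, DKC1, WDR43, NOP14 and NPM1 are lowest in L428-PAX5+MAT.

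The second comparison asks what 5-aza-dC and TSA do in the line with PAX5. Of the 34 genes, 24 were lower in L428-PAX5+MAT than in L428-PAX5+M and none was higher (limma adjusted p below 0.05). This is 70.6% of the group, against 19.4% of all genes that were lower and 14.2% that were higher. With dim genes left out, 3539 of 11038 genes were lower and 1924 higher (median log2 change -0.16). In that fit 24 of the 34 were lower and 1 higher. At an unadjusted p below 0.05, 26 were lower and 2, DDX10 and RRP12, higher, and these 2 also passed when replicate number entered as a block (adjusted p = 0.0355 and 0.0364). DDX10 also passed without L428+MAT replicate 1 (adjusted p = 0.0383) or 2 (0.0317), and RRP12 without L428-PAX5+MAT replicate 3 (0.0414). In the blocked fit the number of lower genes over the whole array rose from 3582 to 4472. Of the 34 genes 27 were lower in it, with BYSL (adjusted p = 0.0129), NPM1 (0.0255) and LTV1 (0.0289) added. The median log2 change was -0.56 against -0.04 over all genes, and 5 of the 24 fell at least 2-fold. Because the arrays of L428-PAX5+M serve in both comparisons, a rise in the first and a fall in the second are not independent, and their values are given side by side only. Quantile normalization of the values lowered the count to 17, with a median of -0.34. The 7 genes that lost the call there were NAT10 (-0.34, adjusted p = 0.0712), NOP2 (-0.32, 0.0931), NCL (-0.25, 0.1), LYAR (-0.38, 0.12), NOLC1 (-0.26, 0.176), HEATR1 (-0.19, 0.326) and NOP58 (-0.05, 0.772). On the same arrays the mean of the 5 Hodgkin markers was 9.57 to 9.82 in L428-PAX5+MAT against 10.87 to 10.97 in L428-PAX5+M, and its part in the result was not tested.

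MYC signal was 10.58, 10.23 and 10.5 in L428-PAX5+MAT, below each array of L428-PAX5+M. It fell by 0.86 on the log2 scale, or 1.81-fold (SE 0.15, adjusted p = 1.83e-04 by limma). ODC1 did not pass: at 12.25, 11.83 and 11.69 its values overlapped those before the drugs, and the change was -0.03 ± 0.22 (95% interval -0.49 to 0.43, adjusted p = 0.941). RRS1 fell to 10.25, 9.46 and 10.14, a 2.8-fold fall (-1.49 ± 0.23, adjusted p = 6.50e-05). DKC1 fell from 10.3, 10.06 and 9.99 to 8.85, 8.54 and 9.14, a 2.42-fold fall (-1.27 ± 0.17, adjusted p = 1.38e-05). WDR43, a processome subunit that binds the nascent precursor, fell from 10.72, 10.38 and 10.44 to 9.45, 8.81 and 9.6, a 2.33-fold fall (-1.22 ± 0.18, adjusted p = 4.82e-05). URB2 fell to 8.45, 7.81 and 8.49 (-1.09 ± 0.19, adjusted p = 2.13e-04). In each of these 4 genes the lowest of the 3 values with the drugs was that of replicate 2.

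The fall reached every role group. It passed for 9 of the 10 factors of 60S assembly (median log2 change -0.69), BOP1 being the exception at -0.00 ± 0.33. BOP1, PES1 and WDR12 form 1 complex of large subunit processing, and PES1 (-0.63 ± 0.15) and WDR12 (-0.72 ± 0.17) passed. It passed for 5 of the 6 RNA polymerase I and nucleolar genes (median -0.54), all but NPM1, although NCL, NOLC1 and LYAR did not pass after quantile normalization, and for 4 of the 5 snoRNP proteins (median -0.46), all but NHP2. FBL, which had not moved with PAX5, fell by 0.51 (SE 0.11, adjusted p = 0.0021). The small subunit group was split, with 5 of 11 lower (median -0.47, range -1.22 to 0.41). WDR43, TSR1, NOP14, NAT10 and HEATR1 fell, while DDX10 (0.41 ± 0.16), RRP12 (0.37 ± 0.17), RCL1 (0.17 ± 0.16), RRP9 (-0.22 ± 0.27), LTV1 (-0.46 ± 0.23) and BYSL (-0.52 ± 0.21) did not pass. Of these 6, LTV1 and BYSL passed as lower and DDX10 and RRP12 as higher in the blocked fit, and NAT10 and HEATR1 did not pass after quantile normalization. In 18 of the 24 genes the call held in every fit that left out 1 array. HEATR1 lost it without L428-PAX5+M replicate 3 (-0.40, adjusted p = 0.055) or L428-PAX5+MAT replicate 1 (-0.38, adjusted p = 0.0663), and with only the compared groups in the fit (adjusted p = 0.0538). NOP2 lost it without L428-PAX5+M replicate 1 (-0.52), GAR1 without L428-PAX5+M replicate 1 (-0.40) or L428-PAX5+MAT replicate 2 (-0.42), and NOP16 without L428-PAX5+M replicate 1 (-0.56) or 2 (-0.53) or L428-PAX5+MAT replicate 1 (-0.56). LYAR lost it without 4 of the 6 compared arrays (-0.43 to -0.54), all but L428-PAX5+M replicate 3 and L428-PAX5+MAT replicate 2, and NOP58 without any but L428-PAX5+MAT replicate 3 (-0.30 to -0.33).

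In L428 without the PAX5 construct the same drugs moved none of the 34 genes past the threshold in either direction (limma adjusted p below 0.05), against 4.21% of all genes that were higher and 0.635% that were lower. Leaving out dim genes gave 579 higher and 110 lower of 11038, and again none of the 34. At an unadjusted p below 0.05, 4 were higher and 2 lower. The median log2 change was 0.08 and the range -0.36 to 0.51. NIP7, which acts in large subunit assembly, had 10.92, 10.62 and 10.6 in L428+M, against 11.48, 11.09 and 11.01 in L428+MAT (0.48 ± 0.16, adjusted p = 0.115), and passed when replicate number entered as a block (adjusted p = 0.0233). NAT10 passed as lower without L428+M replicate 3 (-0.58, adjusted p = 0.018), RCL1 as higher without L428-PAX5+MAT replicate 2 (0.51, adjusted p = 0.0295) and DDX21 without L428-PAX5+MAT replicate 3 (0.41, adjusted p = 0.0491). MYC had 10.74, 10.5 and 10.41 in L428+MAT, a change of -0.26 ± 0.15 (95% interval -0.57 to 0.05, adjusted p = 0.441). ODC1 had 10.76, 9.87 and 10.11 (-0.34 ± 0.22, 95% interval -0.80 to 0.12). In both L428 groups replicate 1 stood highest. Relative to the L428+M mean, the median of the 34 genes was 0.40, -0.11 and -0.03 on replicates 1 to 3 of L428+MAT and 0.17, -0.08 and -0.11 on those of L428+M.

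The difference between the drug effects of the 2 lines was tested directly. It equals the PAX5 change with the drugs minus the PAX5 change without them. Its arrays include those of the rise with PAX5 and of the fall with the drugs, so it is not independent of either. The difference was negative, meaning a more negative change in L428-PAX5, and passed for 12 of the 34 genes. None passed in the other direction, where an unadjusted p below 0.05 also gave none. That is 35.3% of the group, against 10.6% of all genes with a passing negative difference and 5.64% with a positive one. Without dim genes, 2034 of 11038 genes had a passing negative difference and 853 a positive one. Of the 34 genes, 16 were negative in that fit. Quantile normalization changed the share of positive differences among all passing genes from 34.7% to 48.7% and left 8 of the 34 genes negative. The differences of largest size were those of RRS1 (-1.67 ± 0.32, adjusted p = 0.00195), DKC1 (-1.41 ± 0.24, adjusted p = 7.63e-04), URB2 (-1.27 ± 0.27, adjusted p = 0.00371) and WDR43 (-1.23 ± 0.26, adjusted p = 0.00323). For RRS1 and DKC1 the change was 0.18 ± 0.23 and 0.13 ± 0.17 in L428, where the values before and after the drugs overlapped. At the other end of the order stood NHP2 (0.34 ± 0.56), ODC1 (0.31 ± 0.31) and DDX10 (0.26 ± 0.23), none of which passed. The place of NHP2 rests on its brighter probe set. The annotation pairs 2 probe sets with NHP2, and which of them reads the gene itself was not tested. The dimmer one had means of 8.66 in L428+M, 8.72 in L428+MAT and 9.13 in both L428-PAX5+M and L428-PAX5+MAT. The difference for MYC was -0.60 ± 0.21 with adjusted p = 0.06, and 0.0347 when replicate number entered as a block. In that blocked fit the passing negative differences over all genes rose from 1951 to 3013. Of the 34 genes 19 passed in it, with GAR1, HEATR1, MRTO4, NOP2, NOP58 and PES1 added besides MYC. Without L428+MAT replicate 1 the count was 7, and 7 genes (RRS1, DKC1, NOP14, WDR43, NIP7, DDX21 and URB2) passed in every fit that left out 1 array. The other 5, LYAR, TSR1, POLR1B, NOLC1 and PA2G4, all missed it without L428+MAT replicate 1 (-0.61 to -0.78).

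**Figure D3:**
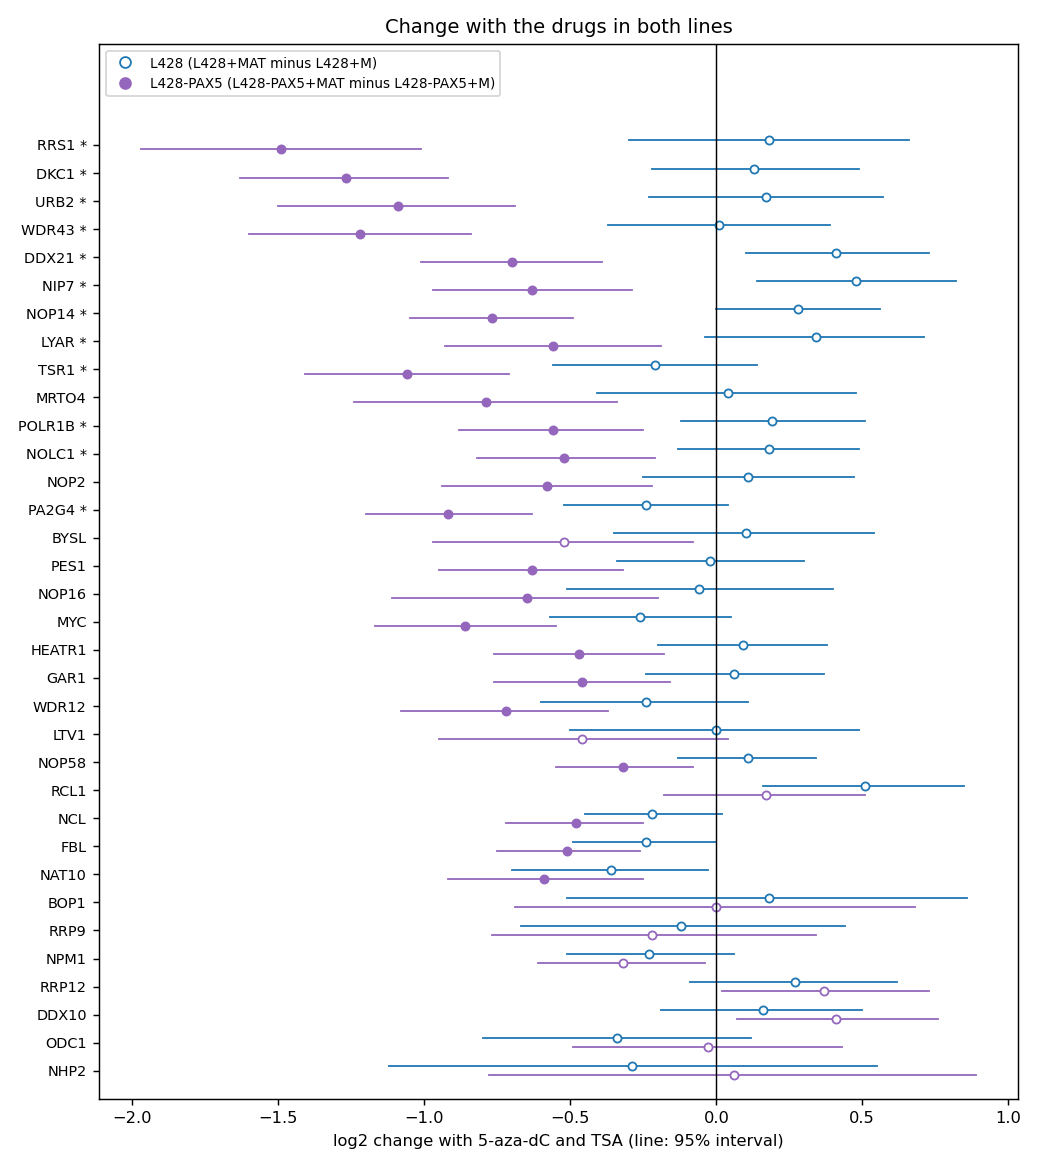
Points give the log2 change with 5-aza-dC and TSA and lines its 95% interval, in L428 (blue) and in L428-PAX5 (purple); filled points passed limma at an adjusted p below 0.05, and an asterisk marks the 12 genes whose difference between lines passed. Blue points lie between -0.36 and 0.51 and none is filled, while 24 purple points are filled, all below 0.

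With the drugs present in both lines, L428-PAX5+MAT was higher than L428+MAT in 3 of the 34 genes and lower in 4 (8.82% and 11.8% of the group), against 14.3% of all genes higher and 17.7% lower, and the median log2 change was 0.01. With dim genes left out, 2119 of 11038 genes were higher and 3068 lower, against 3 and 4 of the 34. This comparison shares no array with the one without drugs, and the 3 higher genes, ODC1, DDX10 and HEATR1, were 3 of the 19 that were higher there. ODC1 was 3.2-fold higher (1.68 ± 0.22, adjusted p = 1.09e-05) and DDX10 2.85-fold (1.51 ± 0.16, adjusted p = 1.35e-06). DDX10 had 7.2, 6.46 and 6.92 in L428+MAT and 8.3, 8.49 and 8.32 in L428-PAX5+MAT, with no overlap. HEATR1 was 1.49-fold higher (0.58 ± 0.14, adjusted p = 0.00285). The lower genes were NOP14, a processome protein, WDR43, DKC1 and PA2G4, a nucleolar and proliferation-linked protein. NOP14 had 9.99, 9.82 and 9.68 in L428+MAT and 8.91, 8.93 and 8.9 in L428-PAX5+MAT (-0.92 ± 0.13, adjusted p = 3.16e-05), whereas without drugs its change was 0.13 ± 0.13. WDR43 (-0.79 ± 0.18, adjusted p = 0.00232) and DKC1 (-0.75 ± 0.17, adjusted p = 0.00186) were also lower. PA2G4 (-0.43 ± 0.14, adjusted p = 0.019) lost its call without L428+MAT replicate 1 (-0.38) or 2 (-0.36), without L428-PAX5+MAT replicate 1 (-0.41) or 2 (-0.39), with only the compared groups in the fit, and under quantile normalization (-0.20). MYC did not pass (-0.11 ± 0.15, 95% interval -0.42 to 0.20), and RRS1 (0.34 ± 0.23) and URB2 (0.00 ± 0.19) did not pass. In the fit with replicate number as a block, all genes gave 3347 higher and 3999 lower, against 2642 and 3256 in the main fit. Of the 34 genes 5 were higher in it, with NHP2 (adjusted p = 0.0449) and RRP12 (0.0437) added, and 5 lower, with FBL (0.0499) added. Under quantile normalization 8 were higher.

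The Burkitt lines give the level of these genes in tumours with translocated MYC. Against L428+M, the mean of Raji and Namalwa was higher in 22 of the 34 genes and lower in 2 (64.7% and 5.88%), against 18.7% of all genes higher and 16.7% lower. Without dim genes, 3158 of 11038 genes were higher and 2865 lower, and of the 34 genes 22 and 3. The median log2 change was 0.62, against 0.03 over all genes, and 5 of the 22 were at least 2-fold higher. The median of the 34 genes relative to the L428+M mean was 0.68 to 0.80 on the Raji arrays, 0.42 to 0.52 on the Namalwa arrays and 0.49 to 0.77 on the L428-PAX5+M arrays, all of which are set against the same L428+M arrays. MYC had 11.41, 11.5 and 11.91 in Raji and 11.84, 11.85 and 11.87 in Namalwa, above every L428+M array. This was a 1.89-fold difference (0.92 ± 0.13, n = 6 arrays of 2 lines against 3 arrays, limma adjusted p = 8.82e-06). The SE and p-values of the Burkitt comparisons rest on spread between arrays within groups. They do not measure how Burkitt lines vary among themselves. DDX10 had 8.49, 8.47 and 8.69 in Raji and 8.48, 8.6 and 8.45 in Namalwa, 3.54-fold above L428+M (1.82 ± 0.14, adjusted p = 3.66e-09). ODC1 had 12.62, 12.67 and 12.76 in Raji and 11.94, 11.84 and 12 in Namalwa, and was 3.29-fold higher (1.72 ± 0.19, adjusted p = 5.09e-07).

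NOLC1, a nucleolar chaperone of snoRNPs, was 2.23-fold above L428+M in the Burkitt lines (1.15 ± 0.13, adjusted p = 4.33e-07), and BYSL, a factor of 40S maturation, 2.11-fold (1.08 ± 0.18, adjusted p = 9.00e-05). By role, 5 of 6 RNA polymerase I and nucleolar genes were higher (median 0.86), 8 of 11 small subunit genes (median 0.69), 5 of 10 large subunit genes (median 0.49) and 2 of 5 snoRNP proteins (median 0.31). The 2 lower genes were NIP7, with 10.3, 10.18 and 10 in Raji and 10.24, 10.25 and 9.91 in Namalwa (-0.57 ± 0.14, adjusted p = 0.00296), and LTV1, a late 40S factor (-0.64 ± 0.20, adjusted p = 0.0184). LTV1 did not pass without L428+M replicate 3 (-0.39, adjusted p = 0.189) or with array medians subtracted (-0.57, adjusted p = 0.053), and LTV1 values in Raji overlapped those of L428+M. RRS1, whose rise with PAX5 was the largest, had 9.67, 9.49 and 9.54 in Raji and 9.12, 8.77 and 9.12 in Namalwa. These overlap the L428+M values (-0.14 ± 0.20, 95% interval -0.56 to 0.27). Calls also fell away for URB2 without L428+M replicate 2 (0.49) or 3 (0.51), for WDR12 without L428+M replicate 2 (0.38), and for FBL (0.24) and RRP9 (0.56) without L428+M replicate 3.

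**Figure D4:**
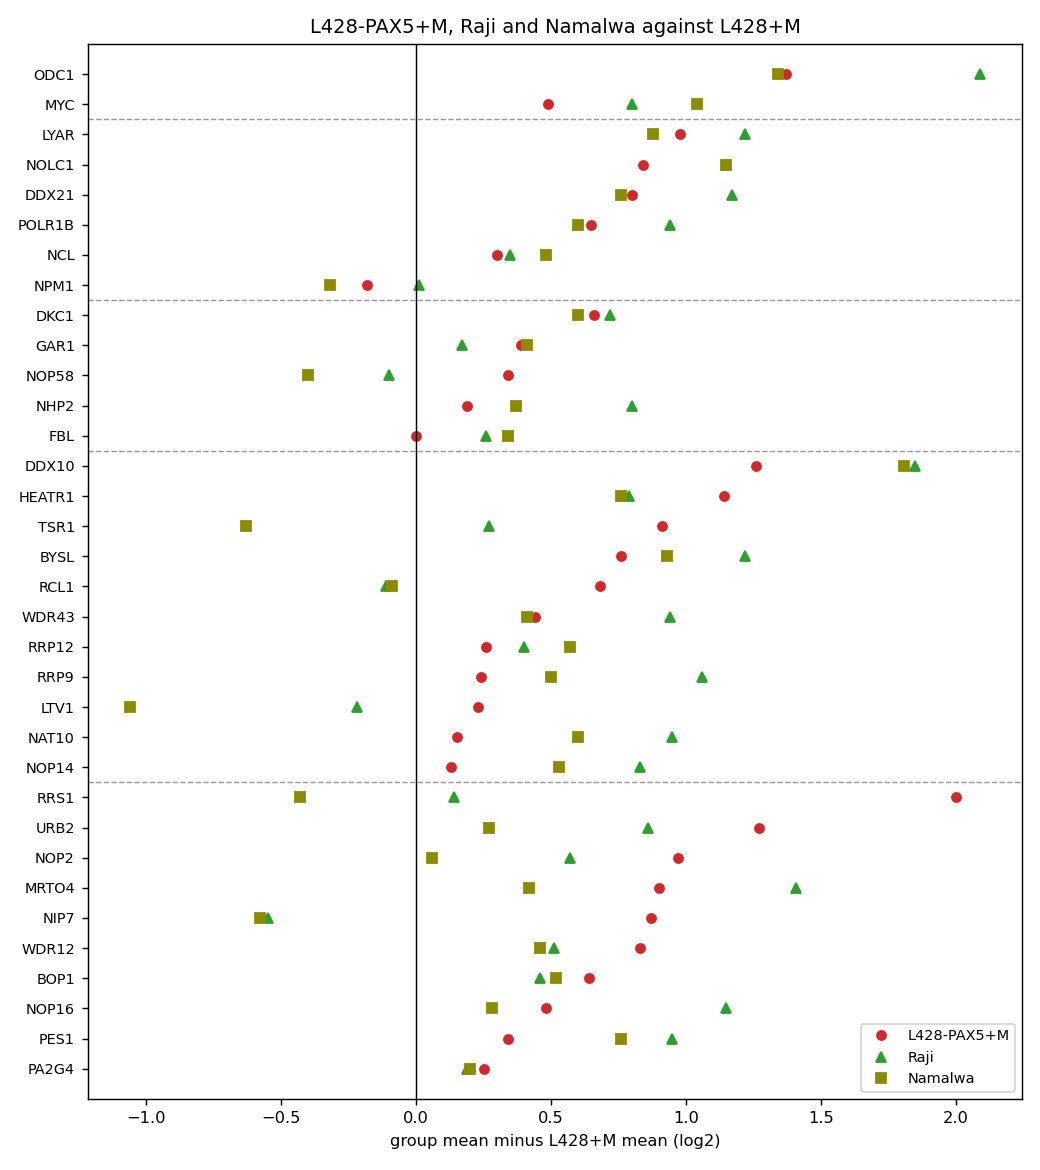
For each gene, the group means of L428-PAX5+M (circles), Raji (triangles) and Namalwa (squares) are plotted as log2 differences from the L428+M mean, in role groups separated by dashed lines. DDX10 lies further right in Raji and Namalwa than in L428-PAX5+M, RRS1, RCL1, TSR1 and NIP7 lie further right in L428-PAX5+M than in either Burkitt line, and NIP7 and LTV1 lie left of 0 in both Burkitt lines.

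Set against L428-PAX5+M, the Burkitt lines were higher in 6 of the 34 genes and lower in 9 (17.6% and 26.5%), against 17.6% and 19.5% of all genes, with a median log2 change of 0.09. The share of higher genes thus equalled that of all genes, dim ones included. With dim genes left out, 2784 of 11038 genes were higher and 3327 lower, against 7 and 9 of the 34. RRS1 was 4.43-fold lower in the Burkitt lines (-2.15 ± 0.20, adjusted p = 3.93e-08) and NIP7 2.7-fold lower (-1.43 ± 0.14, adjusted p = 8.84e-08). TSR1, a factor of late 40S maturation, was 2.13-fold lower (-1.09 ± 0.14, adjusted p = 5.02e-06) and LTV1 1.82-fold lower (-0.86 ± 0.20, adjusted p = 0.00198). The higher genes of largest difference were NAT10, an acetyltransferase of ribosomal RNA (0.62 ± 0.14), DDX10 (0.57 ± 0.14), NOP14 (0.55 ± 0.12) and PES1 (0.51 ± 0.13). MYC was 1.35-fold higher in the Burkitt lines (0.44 ± 0.13, adjusted p = 0.0108), with adjusted p = 0.0763 without L428-PAX5+M replicate 3 (0.35), and its lowest Burkitt value, 11.41 in Raji, lay just above the highest of L428-PAX5+M, 11.4. HEATR1 lost its call without L428-PAX5+M replicate 3 (-0.30), and FBL without replicate 2 (0.31) or 3 (0.28) of that group. ODC1 did not pass (0.35 ± 0.19, 95% interval -0.05 to 0.75), although it did with only the compared groups in the fit (adjusted p = 0.0378). DKC1 had nearly equal means (0.01 ± 0.15, 95% interval -0.30 to 0.31). For MRTO4 the change was also 0.01 (SE 0.18, 95% interval -0.38 to 0.40), but only as the average of unlike lines. The MRTO4 mean of 9.02 in L428-PAX5+M lay between 9.53 in Raji and 8.54 in Namalwa.

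Raji and Namalwa were not equal. Raji was higher in 7 of the 34 genes and lower in none (20.6% and 0%), against 7.74% of all genes higher and 11.5% lower. Without dim genes, 1375 of 11038 genes were higher and 1999 lower, and of the 34 genes 9 and none. At an unadjusted p below 0.05, 16 were higher and none lower, and the median log2 change was 0.30. MRTO4, a large subunit factor related to the stalk protein P0, had 9.39, 9.44 and 9.78 in Raji and 8.35, 8.58 and 8.69 in Namalwa (1.0 ± 0.21, adjusted p = 0.00184). TSR1 had 9.16, 9.17 and 9.09 against 8.18, 8.41 and 8.14 (0.90 ± 0.17, adjusted p = 5.05e-04), and NOP16, a large subunit factor, 8.99, 9.11 and 8.93 against 8.1, 8.19 and 8.14 (0.87 ± 0.22, adjusted p = 0.00644). These 3 passed in every fit that left out 1 array. LTV1 (0.84 ± 0.23, adjusted p = 0.0149) lost its call without Namalwa replicate 1 (0.75) or Raji replicate 3 (0.78), and ODC1 (0.76 ± 0.22, adjusted p = 0.019) without Namalwa replicate 1 (0.76) or 2 (0.71) or Raji replicate 2 (0.76) or 3 (0.72). MYC did not pass and had the opposite sign (-0.25 ± 0.15, 95% interval -0.56 to 0.06). URB2 (0.59) and NOP2 (0.51) lost theirs without any of several arrays. The count was 4 without Namalwa replicate 1 and 4 without Namalwa replicate 2. It was 13 in the fit with replicate number as a block (DDX21, NOP58, NPM1, RRP9, RRS1 and WDR43 added). That fit raised the number of genes higher in Raji over the whole array from 1426 to 2024. With array medians subtracted, 14 of the 34 genes were higher. This scaling shifts the median of all genes from 0.04 to 0.14 and the share of higher genes among all calls from 40.2% to 53.4%.

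Other genes of ribosome biogenesis, none of them among the 34, were read from lists by pathway step, and each list is described by its counts. In L428-PAX5+M against L428+M, 19 of 39 other small subunit factors were higher and none lower (median log2 change 0.46), led by UTP20, a large processome scaffold (1.26 ± 0.19), and EMG1, a methyltransferase of 18S rRNA (0.96 ± 0.16). Of 33 other large subunit factors 17 were higher and none lower (median 0.44), led by FTSJ3 (0.97 ± 0.17) and NOC3L (0.94 ± 0.24). Of 15 other RNA polymerase I genes 6 were higher and none lower (median 0.41), led by the termination factor TTF1 (1.17 ± 0.18) and TAF1A of the promoter selectivity factor (1.10 ± 0.16). The exosome and trimming list had 5 of 17 higher (median 0.50), led by EXOSC2 (0.98 ± 0.14) and DIS3 (0.78 ± 0.12), and the list of snoRNP assembly and rRNA modification 2 of 13, NUFIP1 (1.03 ± 0.27) and ZNHIT6 (0.64 ± 0.17). These shares stand beside the 9.72% of all genes, dim ones included, that were higher.

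The same lists were read in L428-PAX5+MAT against L428-PAX5+M, which shares the L428-PAX5+M arrays with the values just given. The small subunit list had 20 of 39 lower and none higher (median log2 change -0.47), with NOB1, the nuclease that makes the end of 18S rRNA (-1.61 ± 0.20), and EMG1 (-1.29 ± 0.16) the lowest. The large subunit list had 12 of 33 lower and 3 higher, with TMA16 (-1.41 ± 0.24) and RSL1D1 (-1.28 ± 0.22) at one end and NVL (0.56 ± 0.12) and ZNF622 (0.49 ± 0.16) at the other. The exosome list had 10 of 17 lower (median -0.54), with EXOSC8 (-2.10 ± 0.30) and EXOSC1 (-1.28 ± 0.16), both exosome subunits, the lowest. The snoRNP list had 6 of 13 lower and 1 higher, with METTL5 (-1.28 ± 0.18), NAF1 (-0.83 ± 0.12) and SHQ1 (0.96 ± 0.18). The RNA polymerase I list had 6 of 15 lower and 1 higher, with UBTF, the factor that opens ribosomal DNA (-1.01 ± 0.20), POLR1H (-0.89 ± 0.24) and POLR1E (0.48 ± 0.17). These stand beside 19.4% of all genes, dim ones included, lower and 14.2% higher.

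Genes for the ribosomal proteins themselves were read as a list of their own. Of 58 measured cytosolic ribosomal protein genes, 2 were higher with PAX5, RPL23 (0.63 ± 0.19) and RPL17 (0.57 ± 0.18), and 1 lower, RPS23 (-0.66 ± 0.13), with a median log2 change of 0.01. With the drugs in L428-PAX5, 9 were lower and none higher (median -0.21), RPL22 (-1.61 ± 0.18) and RPL23 (-0.79 ± 0.19) the lowest. The shares were 3.45% higher and 1.72% lower with PAX5, against 9.72% and 6.55% of all genes. With the drugs 15.5% were lower, against 19.4% of all genes. RPL22 was dim, with group means of 6.39 in L428+M, 6.23 in L428-PAX5+M and 4.62 in L428-PAX5+MAT, all below the median of all values. Ribosomal protein genes and NPM1 have many processed copies in the genome, and their values are uncertain where a probe set shares sequence with them.

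**Figure D5:**
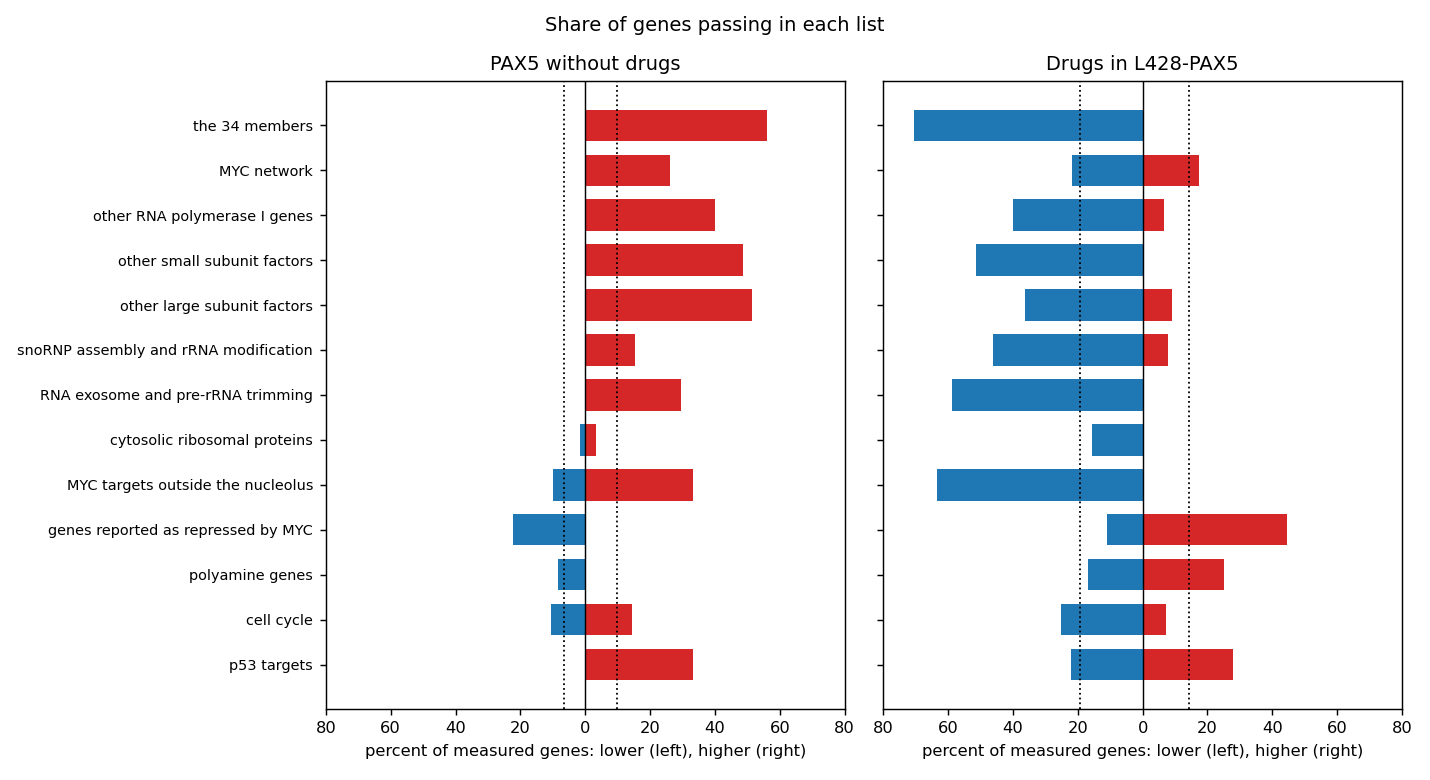
Bars give the percent of measured genes in each list that passed limma at an adjusted p below 0.05, higher to the right and lower to the left, for L428-PAX5+M against L428+M (left panel) and L428-PAX5+MAT against L428-PAX5+M (right panel); dotted lines mark the percent over all 18417 genes. The 34 genes reach 55.9% higher in the left panel and 70.6% lower in the right one, and the ribosomal proteins stay inside the dotted lines on both sides.

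MYC targets outside the nucleolus moved in both directions with PAX5. The counts of this list and of those after it stand beside 9.72% of all genes higher and 6.55% lower with PAX5, and 14.2% higher and 19.4% lower with the drugs in L428-PAX5. Dim genes are included in these all-gene shares. Of 30 measured, 10 were higher and 3 lower with PAX5 (median log2 change 0.33), with CTPS1 (1.09 ± 0.13) and CAD (1.0 ± 0.20), enzymes of pyrimidine nucleotide synthesis, at one end and LDHA, lactate dehydrogenase (-0.74 ± 0.13), and TFRC, the transferrin receptor (-0.55 ± 0.14), at the other. With the drugs 19 were lower and none higher (median -0.67), SHMT2 (-1.37 ± 0.13) and CAD (-1.26 ± 0.20) the lowest. In the network around MYC, 6 of 23 genes were higher and none lower with PAX5 (median 0.12). They were led by MXD1, a MAX partner that opposes MYC (1.84 ± 0.21), and RUVBL1, a MYC cofactor (1.33 ± 0.15). With the drugs 4 of the 23 were higher and 5 lower (median -0.05), with MXD3 (0.84 ± 0.23) and FBXW7, which targets MYC for degradation (0.70 ± 0.14), higher and RUVBL1 (-0.81 ± 0.15) and MLX (-0.76 ± 0.17) lower. MXD1 and FBXW7 act against MYC, so a count over this list mixes opposite roles. Its shares with the drugs, 17.4% higher and 21.7% lower, lay near those of all genes.

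Among 9 measured genes reported as repressed by MYC, none was higher and 2 were lower with PAX5, CDKN1B (-1.20 ± 0.25) and NDRG2 (-0.65 ± 0.15), and with the drugs 4 were higher and 1 lower, NDRG1 rising by 2.71 ± 0.19 and CDKN2B by 1.59 ± 0.24 while CDKN1B fell by 0.86. NDRG1 also rose in L428 (1.54 ± 0.19, adjusted p = 3.91e-05), and the difference between lines passed (1.17 ± 0.27, adjusted p = 0.00702). Around ODC1, 1 of 12 other polyamine genes was lower with PAX5 and none higher: SAT1, the acetyltransferase that starts polyamine breakdown (-0.91 ± 0.16). With the drugs 3 were higher and 2 lower, SAT1 (1.55 ± 0.16) and the antizyme inhibitor AZIN2 (1.95 ± 0.23) rising and the spermine synthase gene SMS (-1.12 ± 0.25) and AZIN1 (-0.50 ± 0.15) falling.

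Cell cycle genes and p53 targets were read beside these results. With PAX5, 4 of 28 cell cycle genes were higher and 3 lower (median log2 change 0.02), CCNE1 (1.03 ± 0.16), GINS2 (0.64 ± 0.17), RRM2 (-1.05 ± 0.15) and TYMS (-0.70 ± 0.19) among them. With the drugs in L428-PAX5, 2 were higher and 7 lower (median -0.27), with CCNE2 (1.96 ± 0.19) and CDC6 (0.94 ± 0.27) higher and TYMS (-1.74 ± 0.19) and MCM5 (-1.05 ± 0.17) lower. The shares of the cell cycle list were 14.3% higher and 10.7% lower with PAX5, against 9.72% and 6.55% of all genes. With the drugs they were 7.14% and 25.0%, against 14.2% and 19.4% of all genes. Of 18 p53 targets, 6 were higher and none lower with PAX5, led by ZMAT3 (1.44 ± 0.21) and TIGAR (1.40 ± 0.19), and with the drugs 5 were higher and 4 lower, from TIGAR (1.03 ± 0.19) and CDKN1A (0.84 ± 0.25) to FAS (-1.58 ± 0.39) and TP53I3 (-0.96 ± 0.16). The p53 shares were 33.3% higher and 0% lower with PAX5, and 27.8% and 22.2% with the drugs. TIGAR (1.24 ± 0.19, adjusted p = 4.11e-04) and CDKN1A (1.14 ± 0.25, adjusted p = 0.00867) also rose with the drugs in L428, where none of the 34 genes passed, and for neither did the difference between lines pass (adjusted p = 0.699 and 0.65). The part of cell cycle and p53 target genes in the results for the 34 genes was not tested.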

How the data were processed

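Total RNA of 18 cell line samples was measured on whole-transcript arrays. The deposited values are log2 signals per probe set; the submitters' processing notes name RMA and Partek, and versions and a genome build are not given in the sources used here. Of 33297 probe sets, 19460 carry 1 gene symbol in the platform annotation, 1754 several and 12083 none. The brightest on average was kept for each of 18417 genes.

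Group means were fitted to all 18 arrays with limma 3.58.1 in R 4.3.3 (no trend; 12 residual degrees of freedom and a prior of 6.1). Tests are two-sided, Benjamini-Hochberg adjusted within each of 8 comparisons, and pass below 0.05. The fit was tested on simulated data. For L428-PAX5+MAT the sample titles read L425-PAX5; the cell line field was followed. Same-numbered arrays deviated together in all 6 pairs of L428 groups (r 0.27 to 0.65) and between Raji and Namalwa (0.33 to 0.54), so for these comparisons a fit with the number as a block is given where it changes calls. Burkitt arrays against L428+M or L428-PAX5+M gave -0.01 to 0.24 on replicates 1 and 2, and 0.40 to 0.51 on replicate 3. There the numbers do not pair the samples on every replicate. The number of arrays limits precision.

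Members and lists were chosen with earlier results of these data known. Named are MYC and ODC1, the 4 largest passing rises and falls of each comparison, the 3 largest differences between drug effects in each direction, and up to 2 rising and 2 falling genes per list; other members appear within their role group. Alternatives were the block, only the compared groups, subtracted array medians, quantile normalization, dim genes left out, other probe sets, an intensity trend with robust prior, a 2-fold threshold, and each array left out. Tables used Python 3.11.15, pandas 2.3.3 and numpy 2.4.6, and plots matplotlib 3.10.9.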

Additional observations from a re-analysis of the deposited data

Results flagged for a closer look

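The drug effect differed between the lines, by a direct test of the difference, in 12 of the 34 genes. The difference is the log2 change with 5-aza-dC and TSA in L428-PAX5 minus that in L428. It shares arrays with the rise with PAX5 and with the fall with the drugs. It was -1.67 for RRS1, -1.41 for DKC1, -1.27 for URB2, -1.23 for WDR43, -1.11 for NIP7, -1.11 for DDX21, -1.05 for NOP14, -0.90 for LYAR, -0.85 for TSR1, -0.76 for POLR1B, -0.70 for NOLC1 and -0.68 for PA2G4. LYAR, TSR1, POLR1B, NOLC1 and PA2G4 lost their call without L428+MAT replicate 1. Other arrays whose absence ended a call were L428-PAX5+MAT replicate 2 for TSR1, POLR1B and NOLC1, L428-PAX5+MAT replicate 1 for LYAR, L428+M replicate 2 for LYAR, POLR1B and NOLC1, L428+M replicate 3 for POLR1B, NOLC1 and PA2G4, L428-PAX5+M replicate 1 for POLR1B and PA2G4, L428-PAX5+M replicate 2 and L428+MAT replicate 2 for PA2G4, and L428-PAX5+M replicate 3 and L428+MAT replicate 3 for NOLC1. The lines also differ in HEPES in the medium, and its part in these differences cannot be told apart.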

How the results depend on the processing

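No passing change of a gene named under the rule changed sign under any alternative run. With a replicate block, genes higher numbered 2 for the drugs in L428-PAX5, 1 for the drugs in L428, 5 for PAX5 with drugs and 13 for Raji against Namalwa. Negative differences between drug effects numbered 19, and no other count moved by over 1.5 times. Over all genes the block raised the number of calls in both directions in every comparison. Where the numbers do not pair the samples on every replicate, that block gave 26 higher and 3 lower for Burkitt against L428. BOP1, GAR1, NHP2 and NOP2 were added as higher there, and NOP58 as lower. For Burkitt against L428-PAX5 it gave 8 higher and 9 lower, with NOLC1 and RRP9 added. Quantile normalization gave 2 higher for the drugs in L428-PAX5, 8 for PAX5 with drugs and 11 for Raji against Namalwa. Raji against Namalwa gave 12 with only the compared groups in the fit and 14 with array medians subtracted, which also left 1 gene lower in the Burkitt lines than in L428+M. Leaving out dim genes gave 1 higher for the drugs in L428-PAX5. Requiring a 2-fold change as well left 5 higher with PAX5, 5 lower with the drugs in L428-PAX5, 7 negative differences between lines, 0 lower for PAX5 with drugs, 5 higher and 0 lower for Burkitt against L428, 0 higher and 3 lower for Burkitt against L428-PAX5, and 0 for Raji against Namalwa. Leaving out each array in turn gave 0 to 1 higher for the drugs in L428-PAX5, 0 to 1 higher and 0 to 1 lower for the drugs in L428, 7 to 16 negative differences between lines, 1 to 3 lower for Burkitt against L428 and 4 to 9 higher for Raji against Namalwa. Fewer samples enter those fits; the cause of the other shifts was not tested. Background correction compresses dim signal such as that of DDX10 in L428.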

Other observations

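BOP1, NHP2 and RRP9 had their lowest value on replicate 3 in each of the 6 groups. BOP1 had 9.47, 9.2 and 8.09 in L428+M, against 9.61, 10.08 and 9 in L428-PAX5+MAT. NHP2 had 9.93, 9.09 and 8.79 in L428+M, against 9.65, 9.19 and 8.1 in L428+MAT, and RRP9 8.46, 8.36 and 7.73 in L428+M. In the fit with replicate number as a block, BOP1 passed as higher with PAX5 (0.64, adjusted p = 0.0202). BOP1 and NHP2 were also read by another probe set each. The 2 probe sets of BOP1 gave changes of 0.64 and 0.59 with PAX5, and those of NHP2 gave 0.19 and 0.46.

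On L428-PAX5+MAT replicate 2, which correlated least with replicate 3, some genes stood apart in opposite directions. WDR43 had 8.81 there against 9.45 and 9.6, and TSR1 8.36 against 8.68 and 9.11, while RRP9 had 8.91 against 8.02 and 7.71 and RCL1 10.64 against 10.03 and 10.03. Without that array 22 of the 34 genes were lower with the drugs in L428-PAX5.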
